A study of Nothobranchius furzeri with 18 samples.

Results

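The genes cadm4, hs6st3, adra1b, ampd3b (listed as LOC107372666) and prkd2 encode an adhesion molecule, a heparan sulfate sulfotransferase, an adrenergic receptor, an AMP deaminase and a protein kinase. They are 5 of the 25099 genes counted in cultured tail fibroblasts of the turquoise killifish (Nothobranchius furzeri), which has a short life span and serves as a model of ageing. They were selected for a large difference between exon 3 mutant and wild-type (WT) cells among named genes past the test there, with 5 CPM or more in a genotype and cultures that do not overlap, though not as a strict ranking, so their difference in that comparison is a description here and carries no test. All 5 passed the filter on low counts.

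The cells were primary fibroblasts grown from the tail, and each culture was either WT or carried a homozygous vgll3 mutation, located in exon 1 or exon 3. The submitters' library names call the exon 1 mutant "KD" and the exon 3 mutant "null". The labels give no age, sex or passage, no sequence of either mutation, and no statement that same-genotype cultures were taken from different fish, so the p-values measure the spread between these cultures, which may be technical. There were 4 WT cultures (F1, F9, F4 and FM), 3 exon 1 mutant cultures (3, 4 and 6) and 3 exon 3 mutant cultures (1, 3 and 4), sequenced as 18 libraries of 15236208 to 28146560 counts each. Every culture but F1 and F9 had partner libraries A and B, which the series design calls technical replicates, and these were summed.

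Vgll3, of the vestigial-like family, is a partner of TEAD transcription factors, which also serve the Hippo pathway effectors Yap and Taz. Cadm4 is an immunoglobulin-type adhesion molecule, best known in mouse from the contact between Schwann cells and axons. Hs6st3 adds sulfate to the 6-O position of heparan sulfate, the glycan of surface proteoglycans that holds growth factors such as FGFs near their receptors. Adra1b is an alpha-1 adrenergic receptor, which couples through Gq to phospholipase C and so to calcium and diacylglycerol. Prkd2 is a protein kinase D, a family that diacylglycerol and protein kinase C activate. Ampd3b is an AMP deaminase, which turns AMP into IMP in the purine nucleotide pool.

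Some libraries were unlike the rest. On principal component 1, with 27.7% of the variance, both exon 3 libraries numbered 3 were far out, with scores of 69.6 and 76.7, as was exon 1 library 3A with 54.7, while its partner 3B lay at -32.9 and the others between -43.8 and 12.2. Of 11464 genes, 19.4% differed by over 2-fold between 3A and 3B, 3.87% between the FM partners and 2.13% between the F4 partners, against 0.0349% to 0.174% in the other cultures. The fibroblast markers were well covered, with 11 of 12 matched genes at 1 CPM or more on average in each genotype, while the column named vim reached at most 0.927 CPM. Their means differed between WT and the exon 3 mutant in both directions. Dcn was at 713.6 and 473.6 CPM and lum at 867.5 and 525.3 CPM. Higher in the exon 3 mutant were, among others, col1a2, at 1762 and 2943 CPM, and col6a1, at 553.5 and 1061 CPM. Levels are CPM, counts as a share of the TMM-scaled library total (a scaling by the trimmed mean of log ratios), and they can be compared between genotypes for a gene but not between genes. In these bulk samples, fewer cells of a type and less RNA per cell cannot be told apart.

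The mutated gene itself, vgll3, was at 305.6 ± 30.4 CPM (SD, n = 4) for WT, 244.7 ± 33.6 for the exon 1 and 107.4 ± 10.4 for the exon 3 mutant (n = 3 each). Its log2 fold change against WT was -1.51 ± 0.14 (SE) in the exon 3 mutant and -0.32 ± 0.14 in the exon 1 mutant. A mutation in an exon need not lower a gene's count, so these levels do not by themselves check the genotypes.

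Across the 3 genotypes, 4 of the selected genes were lowest in the exon 3 mutant and prkd2 was highest there. For all 5, the mean of the exon 1 mutant lay between those of WT and the exon 3 mutant, for adra1b by far less than the spread between cultures. Selection for a wide gap between WT and the exon 3 mutant makes a place between them likely, and the share over all genes was not counted. The fall from WT to the exon 3 mutant was steepest for cadm4, 8.26-fold, and was 3.99-fold for ampd3b, 3.85-fold for hs6st3 and 2.98-fold for adra1b, whereas prkd2 was 1.89-fold higher. No library of the exon 3 mutant overlapped the WT libraries in any of the 5 genes, but the selection asked for cultures that do not overlap here. By culture, 6.87% of all genes were lower and 6.99% higher without overlap, and the share by library was not counted. The plot of levels by library shows every value.

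**Figure D1:**
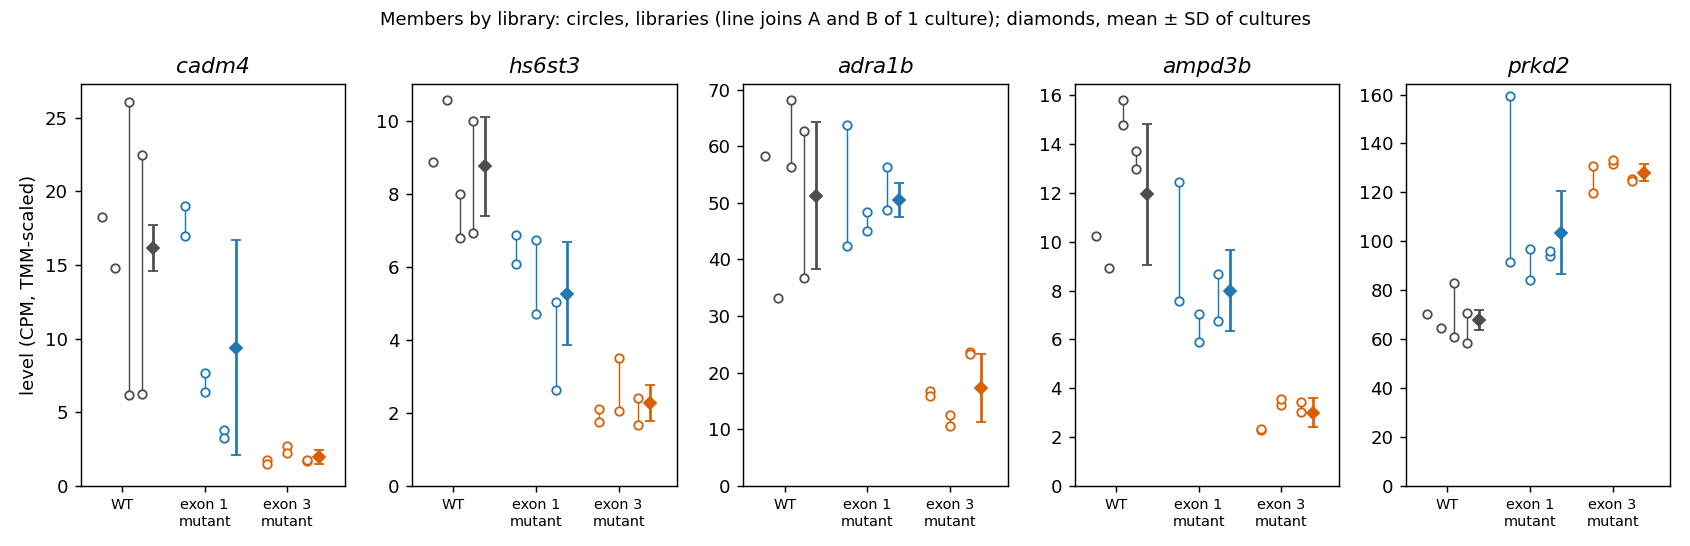
Level of each gene (y axis, CPM, linear from 0) in each library, grouped by genotype on the x axis. Open circles are libraries, lines join partners A and B of a culture, and diamonds with bars are the mean ± SD over cultures (n = 4 WT, 3 exon 1 mutant, 3 exon 3 mutant). The exon 3 mutant libraries lie apart from WT in all 5 panels, and the cadm4 partners of the WT cultures F4 and FM lie far from each other.

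The adhesion gene cadm4 was at 18.3, 14.8, 16.2 and 15.4 CPM in WT F1, F9, F4 and FM. It was at 17.6, 7.10 and 3.49 CPM in exon 1 cultures 3, 4 and 6, and at 1.64, 2.51 and 1.72 CPM in exon 3 cultures 1, 3 and 4. The exon 3 cultures lay below every culture of the other genotypes, and the exon 1 cultures spread from the WT level to just above the exon 3 level. The means were 16.2 ± 1.55 CPM (SD, n = 4) for WT, 9.39 ± 7.32 for the exon 1 and 1.96 ± 0.48 for the exon 3 mutant (n = 3 each). The log2 fold change of the exon 3 mutant was -3.05 ± 0.47 (SE) against WT and -2.26 ± 0.48 against the exon 1 mutant. Without exon 1 culture 3 the last value was -1.44, so that culture sets much of the size of this difference.

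The close agreement of WT cultures F4 and FM in cadm4 came from sums of unlike libraries. F1 and F9 are single libraries, at 18.2 and 14.8 CPM. Library F4A had 6.18 CPM and F4B 26.1 CPM, a 4.22-fold difference, and FMA had 22.5 CPM and FMB 6.25 CPM, a 3.60-fold difference. In the mutant cultures, partners differed by at most 1.21-fold in this gene. If F4A is summed with FMB and F4B with FMA, the levels are 6.22 and 23.9 CPM, beside 16.5 CPM for F1 with F9, and the coefficient of variation in WT is 57.1% in place of 9.59%. This regrouping joins libraries that are alike in cadm4, so the larger coefficient follows from the pairing. On principal component 1, F4B and FMA were close, at -6.43 and -8.56, but F4A and FMB were not, at -32.5 and 12.2. The lowest WT library was still above the highest exon 3 library, at 2.73 CPM, and it lay within the range of the exon 1 libraries, 3.22 to 19.0 CPM. The other selected genes differed less between these partners, as the plot of partner libraries shows.

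**Figure D2:**
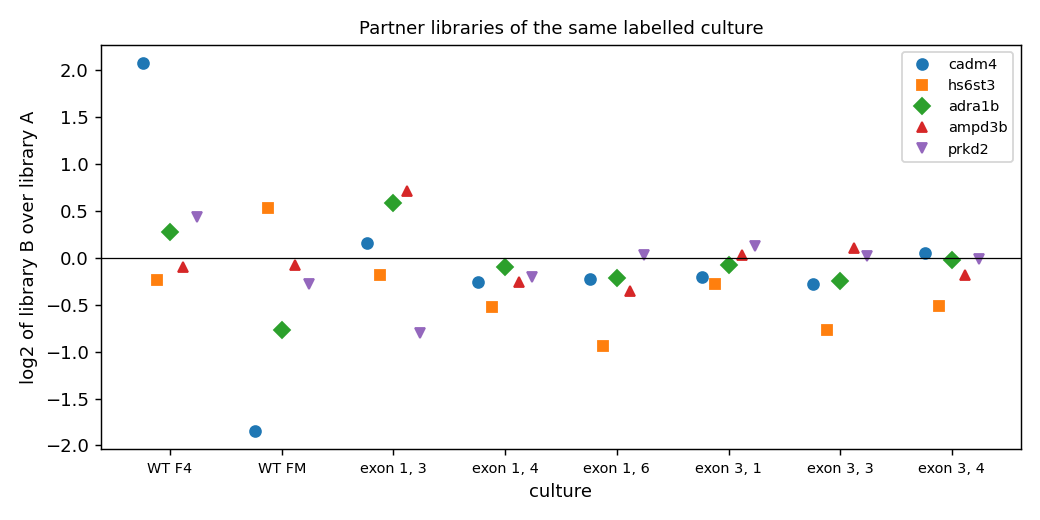
Difference between partner libraries of the same labelled culture (y axis, log2 of the level in B over that in A) for each culture with both libraries (x axis), 1 symbol per gene. The largest distances from 0 are cadm4 in WT F4 (2.08) and WT FM (-1.85).

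The heparan sulfate gene hs6st3 was at 8.93, 10.6, 7.41 and 8.16 CPM in WT F1, F9, F4 and FM. It was at 6.33, 5.83 and 3.66 CPM in exon 1 cultures 3, 4 and 6, and at 1.95, 2.84 and 2.04 CPM in exon 3 cultures 1, 3 and 4. The cultures of the 3 genotypes did not overlap, in the order WT, exon 1 mutant, exon 3 mutant. In single libraries neighbours in that order did overlap, with WT at 6.80 to 10.6 CPM, the exon 1 mutant at 2.63 to 6.88 CPM and the exon 3 mutant at 1.68 to 3.50 CPM. The means were 8.77 ± 1.36 CPM (SD, n = 4) for WT, 5.27 ± 1.42 for the exon 1 and 2.27 ± 0.49 for the exon 3 mutant (n = 3 each). The log2 fold change of the exon 3 mutant was -1.94 ± 0.24 (SE) against WT and -1.21 ± 0.25 against the exon 1 mutant.

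The receptor gene adra1b was at 58.5, 33.1, 62.3 and 51.1 CPM in WT F1, F9, F4 and FM. It was at 51.8, 47.1 and 52.7 CPM in exon 1 cultures 3, 4 and 6, and at 16.4, 11.7 and 23.7 CPM in exon 3 cultures 1, 3 and 4. The exon 1 cultures lay inside the WT range, and every exon 3 culture lay below both. The means were 51.3 ± 12.98 CPM (SD, n = 4) for WT, 50.5 ± 3.02 for the exon 1 and 17.2 ± 6.05 for the exon 3 mutant (n = 3 each). The log2 fold change of the exon 3 mutant was -1.57 ± 0.26 (SE) against WT and -1.55 ± 0.27 against the exon 1 mutant. By library the range was 33.1 to 68.2 CPM for WT, 42.3 to 63.7 for the exon 1 and 10.6 to 23.6 for the exon 3 mutant.

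The kinase gene prkd2 was at 70.4, 64.3, 71.9 and 64.6 CPM in WT F1, F9, F4 and FM. It was at 122.8, 91.3 and 96.6 CPM in exon 1 cultures 3, 4 and 6, and at 125.5, 131.9 and 126.6 CPM in exon 3 cultures 1, 3 and 4. Both mutants lay above WT without overlap, and exon 1 culture 3 came close to the exon 3 level. The means were 67.8 ± 3.93 CPM (SD, n = 4) for WT, 103.5 ± 16.9 for the exon 1 and 128.0 ± 3.39 for the exon 3 mutant (n = 3 each). By library WT ran from 58.2 to 82.7 CPM, just below the lowest exon 1 library at 84.2 CPM. With the WT libraries regrouped as for cadm4, the coefficient of variation in WT was 11.8% in place of 5.79%. The log2 fold change of the exon 3 mutant was 0.92 ± 0.12 (SE) against WT and 0.31 ± 0.13 against the exon 1 mutant. Exon 1 culture 3 joins unlike libraries, 3A at 159.4 CPM, above every exon 3 library, and 3B at 91.7 CPM. With that culture taken from 3B alone, a choice made after seeing the data, the difference between the mutants was 0.46 ± 0.09.

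The AMP deaminase gene ampd3b was at 10.3, 8.92, 15.3 and 13.3 CPM in WT F1, F9, F4 and FM. It was at 9.80, 6.54 and 7.65 CPM in exon 1 cultures 3, 4 and 6, and at 2.32, 3.42 and 3.26 CPM in exon 3 cultures 1, 3 and 4. The exon 3 cultures lay below the rest, while exon 1 culture 3 lay within the WT range. The means were 11.9 ± 2.89 CPM (SD, n = 4) for WT, 7.995 ± 1.66 for the exon 1 and 3.00 ± 0.60 for the exon 3 mutant (n = 3 each). The log2 fold change of the exon 3 mutant was -1.996 ± 0.24 (SE) against WT and -1.41 ± 0.25 against the exon 1 mutant. The paralog ampd3 is counted in its own column, and the rule for reads that match both genes is not given in the sources used here, so the division of reads between them is uncertain.

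The exon 1 mutant carries a mutation elsewhere in vgll3. Its comparison with WT was not used to select these genes, although it shares the WT cultures with the comparison that was. Selection on those WT values can also favour differences between the exon 1 mutant and WT. Counts for the exon 1 mutant against WT are therefore not independent of the selection. In this comparison 0 of the 5 genes passed edgeR's quasi-likelihood test at an adjusted p of 0.05, where 0.159% of all 16354 genes tested did. At an unadjusted p under 0.05 there were 3 of 5, hs6st3, ampd3b and prkd2, against 8.48% of all genes, and DESeq2 called 1, prkd2, against 1.55% of all genes. The culture ranges did not overlap for hs6st3, which was lower, and prkd2, which was higher, where 4.37% of all genes were lower and 4.92% higher in this way.

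Individual values in the exon 1 mutant against WT ran from higher to lower as follows. Prkd2 had a log2 fold change of 0.61 ± 0.12 (SE; edgeR, unadjusted p = 0.000356, adjusted p = 0.120), with 3 of 3 exon 1 cultures above every WT culture. Adra1b had a log2 fold change of -0.02 ± 0.25 (edgeR, adjusted p = 0.997), and its sign turned under 6 of 22 other settings. Ampd3b had -0.58 ± 0.23 (edgeR, adjusted p = 0.499), hs6st3 -0.73 ± 0.23 (adjusted p = 0.378) and cadm4 -0.78 ± 0.42 (adjusted p = 0.678). The cadm4 value was -1.61 without exon 1 culture 3 (edgeR, adjusted p = 0.151) and -0.39 without culture 6 (adjusted p = 0.796), and its adjusted p ran from 0.151 to 0.997 over the other settings. With exon 1 culture 3 from library 3B alone, prkd2 was at 0.45 ± 0.08 with an adjusted p of 0.0670 in edgeR.

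In the comparison that selected the genes, 5 of 5 are past the edgeR test, where 0.238% of all genes are, and 5 of 5 are past DESeq2, where 3.10% are. The ranges do not overlap for 4 lower genes and 1 higher gene, where 6.87% and 6.99% of all genes are lower and higher in this way. Nothing can be read from these counts about the selected genes. Nor can it from the exon 3 mutant against the exon 1 mutant, which shares the exon 3 cultures. There 0 of 5 are past the test in edgeR (0.0122% of all genes) and 4 of 5 in DESeq2 (1.07%), and the ranges do not overlap for 4 lower genes (5.04% of all genes) and 1 higher gene (6.18%).

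**Figure D3:**
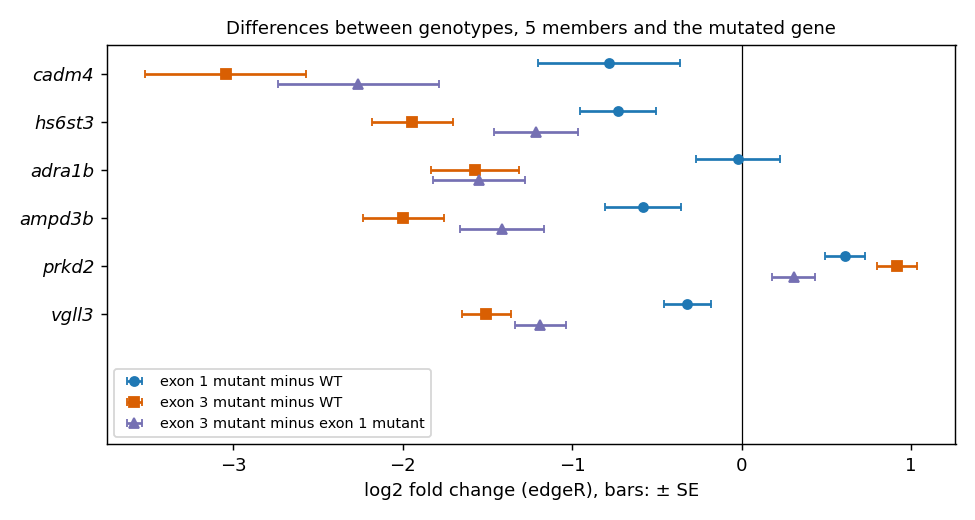
Log2 fold change (x axis, edgeR, bars ± SE) of the 5 genes and vgll3 in the 3 comparisons between genotypes, 1 row per gene. The exon 3 values against WT run from -3.05 (cadm4) to 0.92 (prkd2), and the exon 1 values from -0.78 to 0.61.

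Among named genes past the test in the exon 3 mutant against WT, with 5 CPM or more and ranges that do not overlap, the 4 lower selected genes have the lowest log2 fold changes. The last of them, adra1b at -1.57, is followed by vgll3 at -1.51 and the stress-inducible gadd45g at -1.23, which were not selected. Among the higher genes prkd2 stands behind the matrix protein gene dpt (3.01) and the scavenger receptor gene colec12 (1.18), and ahead of cpz (0.82), which encodes a carboxypeptidase.

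The differences were also computed without exon 3 culture 3, which stood apart on principal component 1. Without it, the exon 3 values against WT were -3.27 for cadm4, -2.14 for hs6st3, -1.36 for adra1b, -2.11 for ampd3b and 0.89 for prkd2. Adra1b, lowest in that culture, was at -1.57 with all cultures. The selection asked for exon 3 cultures that do not overlap WT, so large values without culture 3 were likely. Cadm4 is a gene of Schwann cells in mouse, so the glial markers were examined. Their summed level was 2.004 to 4.64 CPM in WT libraries, 1.55 to 4.74 in exon 1 and 4.10 to 17.2 in exon 3 libraries, with at most 2 of 12 matched genes at 1 CPM or more and plp1b at 0. The sum was carried by plp1a, at 0.466 CPM in WT and 5.70 CPM in the exon 3 mutant on average, and egr2, at 1.59 and 2.85 CPM. The exon 3 cultures were unlike, with sums of 4.73 to 17.04 CPM and plp1a at up to 16.12 CPM in a library. Other glial markers, all under 1 CPM on average, differed in both directions. The sox10 column LOC107376297 was at 0.0836 CPM in WT and 0.386 CPM in the exon 3 mutant. Lower there were mpz, at 0.375 and 0.204 CPM, and mbpa, at 0.249 and 0.216 CPM. The part of glial cells in the level of cadm4 was not tested.

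Markers of other cell types also differed between the genotypes. Bone-forming markers summed to 448 to 1919 CPM in WT libraries, 399 to 2376 in exon 1 and 1536 to 9082 in exon 3 libraries, with 5, 5 and 6 of 6 matched genes at 1 CPM or more. Most of this sum was spp1, at 945.4 CPM in WT and 3246 CPM in the exon 3 mutant on average. Relative to WT, col10a1a and sp7 differed more, at 14.6 and 675.5 CPM and at 1.17 and 19.06 CPM. Col10a1a reached 2079 CPM in a library. By culture the exon 3 sums ran from 1565 to 8372 CPM. Pigment cell markers summed to 20.3 to 36.2 CPM in WT libraries, 17.2 to 22.5 in exon 1 and 18.5 to 138.6 in exon 3 libraries, with mitfa at 0. In the exon 3 mutant the largest part of this sum was dct, at 9.84 CPM on average in WT and 49.4 CPM in that mutant. In the same order mitfb was at 11.52 and 14.35 CPM, pnp4a at 3.47 and 0.476 CPM and tyr at 0.445 and 0.313 CPM. The exon 3 cultures were unlike, with sums of 19.2 to 132.9 CPM and dct at up to 118 CPM in a library. Epithelial markers summed to 6112 to 6827 CPM in WT libraries, 8103 to 9499 in exon 1 and 6944 to 12970 in exon 3 libraries, so that both mutants lay above WT without overlap, with 3 of 7 matched genes at 1 CPM or more. Nearly all of this sum was krt8, at 6537 CPM on average in WT, 8805 with the exon 1 and 9304 with the exon 3 mutation. The other epithelial markers differed in both directions. In the same order epcam was at 1.465, 3.297 and 1.756 CPM and tp63 at 2.609, 2.975 and 3.082 CPM. Lower in both mutants were cdh1, at 0.427, 0.176 and 0.328 CPM, and the cldn1 column LOC107384491, at 0.576, 0.258 and 0.478 CPM. The muscle markers summed to at most 2.95 CPM. The endothelial sum was 25.5 to 60.4 CPM and the blood cell sum 1.12 to 8.31 CPM. The part of these markers in the levels of the selected genes was not tested.

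Among the relatives, ampd3 ran parallel to ampd3b, while in the exon 3 mutant the others differed less than the selected gene or in the other direction. No tested relative passed edgeR's test over all genes in either mutant. DESeq2 called cadm1b, cadm2, cadm2a and ampd3 in the exon 3 mutant and hs6st1 in the exon 1 mutant. In edgeR the same genes were called with 18 libraries as separate samples. That setting treats technical replicates as independent, so its p-values can be too small. EdgeR also called cadm2 without exon 1 culture 6 (adjusted p = 0.0463) and hs6st1 with exon 1 culture 3 from library 3B alone (adjusted p = 0.0447).

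Among the Cadm genes, cadm2 had 0.357 ± 0.06 CPM (SD, n = 4) in WT and 1.38 ± 0.17 CPM (SD, n = 3) in the exon 3 mutant, opposite in sign to cadm4 (log2 fold change 1.96 ± 0.36, SE; edgeR, adjusted p = 0.0673). For cadm2a the exon 3 cultures 1, 3 and 4 were at 9.05, 53.2 and 18.1 CPM and the WT cultures at 2.602 to 7.08 CPM (2.36 ± 0.65; edgeR, adjusted p = 0.176). For cadm1b, exon 3 culture 3 stood alone at 33.2 CPM, with cultures 1 and 4 at 0.394 and 2.66 CPM and the WT cultures at 0.348 to 1.33 CPM (3.84 ± 1.09; edgeR, adjusted p = 0.186). The genes cadm1a and cadm3 were near the limit of detection, with means of at most 0.674 CPM in any genotype. In the exon 1 mutant the 5 relatives had log2 fold changes from -0.89 to 0.85.

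Of the other 6-O-sulfotransferases, hs6st1 was lowest in the exon 1 mutant rather than in the exon 3 mutant. It was at 58.1 ± 4.74 CPM (SD, n = 4) for WT, 34.1 ± 4.22 for the exon 1 and 49.7 ± 10.9 for the exon 3 mutant (n = 3 each). Its log2 fold change in the exon 1 mutant was -0.77 ± 0.15 (SE; edgeR, adjusted p = 0.129), without overlap of cultures, and -0.23 ± 0.15 in the exon 3 mutant (adjusted p = 0.574). For hs6st2 the values were -0.12 ± 0.20 in the exon 1 mutant and 0.01 ± 0.20 in the exon 3 mutant, and both signs turned under other settings. The second hs6st3 gene, hs6st3b, had 5 counts in all libraries together.

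Of the adrenergic receptor genes other than adra1b, adra1aa and adrb2a had enough counts to test. The alpha-1 receptor gene adra1aa was at 0.74 ± 0.36 CPM (SD, n = 4) for WT, 0.68 ± 0.09 for the exon 1 and 0.93 ± 0.21 for the exon 3 mutant (n = 3 each). The beta receptor gene adrb2a was at 1.54 ± 0.93, 2.45 ± 1.22 and 0.90 ± 0.33 CPM in the same order. The other adrenergic receptor genes matched had from 0 counts (adra2c) to 16 counts (adra2a) over all libraries and were not tested.

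The AMP deaminase ampd3 ran parallel to ampd3b, at 3.63 ± 1.00 CPM (SD, n = 4) for WT, 2.59 ± 1.09 for the exon 1 and 1.11 ± 0.22 for the exon 3 mutant (n = 3 each). The exon 3 cultures lay at 0.867 to 1.29 CPM and the WT cultures at 2.44 to 4.69 CPM. Its log2 fold change was -1.71 ± 0.34 (SE; edgeR, adjusted p = 0.0866) in the exon 3 mutant and -0.49 ± 0.32 (adjusted p = 0.758) in the exon 1 mutant. The muscle-type gene ampd1 had 31 counts over all libraries and ampd2b had 2, too few to test.

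Among the protein kinases D, the relatives of prkd2 differed less. Prkd3 was at 44.7 ± 3.02 CPM (SD, n = 4) for WT, 48.8 ± 11.2 for the exon 1 and 56.2 ± 0.98 for the exon 3 mutant (n = 3 each), with a log2 fold change of 0.33 ± 0.14 in the exon 3 mutant (SE; edgeR, adjusted p = 0.381). Prkd1 had a log2 fold change of 0.17 ± 0.30 in the exon 3 mutant and -0.41 ± 0.31 in the exon 1 mutant, and the exon 3 sign turned without exon 3 culture 1 or WT F9. Whether prkd2 differs from its relatives in its change was not tested.

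**Figure D4:**
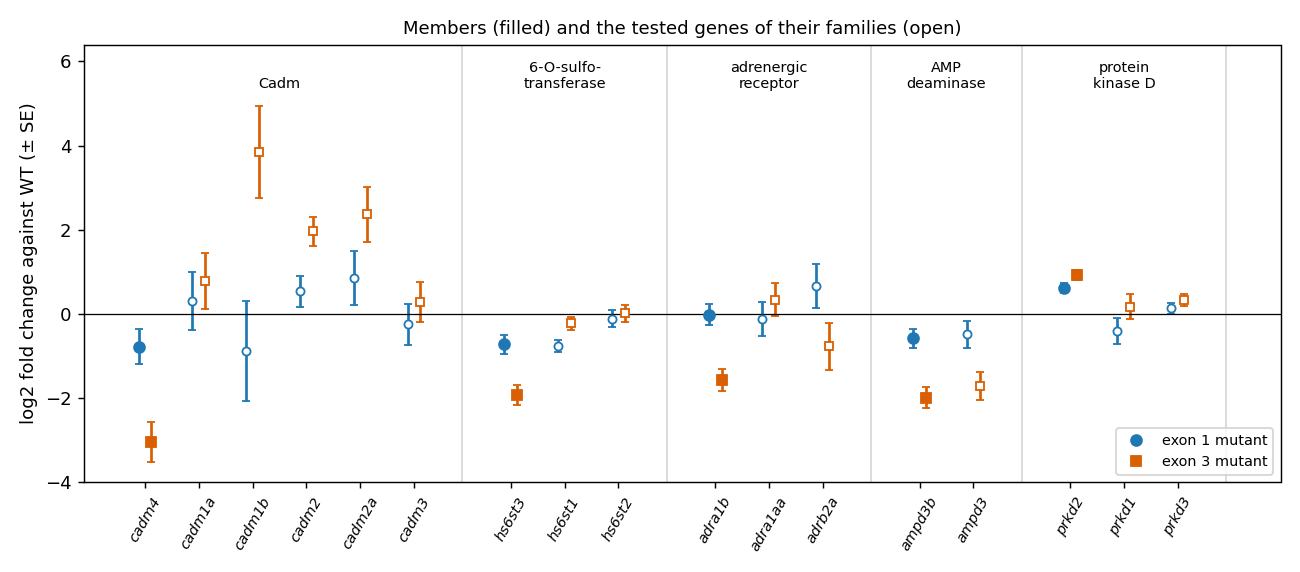
Log2 fold change against WT (y axis, bars ± SE) of the selected genes (filled) and of the tested genes of their families (open), for the exon 1 mutant (circles) and the exon 3 mutant (squares). In the exon 3 mutant ampd3 lies near ampd3b, while cadm1b, cadm2 and cadm2a lie on the other side of 0 from cadm4.

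The genes around these 5 in their pathways were described with 5 lists, which leave out the selected genes. Over all genes tested the median log2 fold change was 0.02 in the exon 1 mutant and 0.01 in the exon 3 mutant, and 0.159% and 0.238% of genes were called by edgeR. At an unadjusted p under 0.05 there were 8.48% and 12.3% of genes, and DESeq2 called 1.55% and 3.10%.

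Of 21 tested adhesion genes of the Cadm and nectin families and their partners, 0 were called by edgeR in either mutant (unadjusted p under 0.05 in 2 with the exon 1 and 5 with the exon 3 mutation; DESeq2 called 1 and 4). In the exon 3 mutant 17 of 21 lay above 0 with a median of 0.28, where 48.5% of all genes tested lay below 0. Some of the 17, among them cadm1a and cadm3, were near the limit of detection. In the exon 1 mutant the median was 0.04. Of 41 tested genes of heparan sulfate synthesis and editing, 1 fell in the exon 1 mutant and 0 were called by edgeR in the exon 3 mutant, where the median was 0.01. An unadjusted p under 0.05 was found for 7 in the exon 1 and 9 in the exon 3 mutant, and DESeq2 called 4 and 3. The gene that fell was hs3st1l2, a heparan sulfate 3-O-sulfotransferase gene, from 1.26 ± 0.52 CPM (SD, n = 4) in WT to 0.190 ± 0.04 CPM in the exon 1 mutant (n = 3; log2 fold change -2.69 ± 0.40, SE; edgeR, adjusted p = 0.0360). In the exon 3 mutant it was at 0.685 ± 0.03 CPM (-0.86 ± 0.35; adjusted p = 0.359). This call was lost in 12 of 22 other settings, among them without exon 1 culture 3 (edgeR adjusted p = 0.158), 4 (0.189) or 6 (0.133), without WT F1 (0.0575), F4 (0.112) or FM (0.0691) and without exon 3 culture 1 (0.0653) or 4 (0.0561), and the range over all settings was 6.72e-06 to 0.221.

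Of 17 tested genes of adrenergic and Gq signalling, 0 were called by edgeR in either mutant, with medians of 0.22 in the exon 3 mutant and -0.06 in the exon 1 mutant. These 17 include the receptor genes adra1aa and adrb2a, so they are not all downstream of adra1b. An unadjusted p under 0.05 was found for 1 gene in the exon 1 and 2 in the exon 3 mutant, and DESeq2 called 0 and 2, the latter LOC107376107 (plcb1) and plcb3. The phospholipase C gene plcb1 has 2 columns. The one listed as LOC107376107 was at 28.9 ± 8.38 CPM in WT and 54.8 ± 12.04 CPM in the exon 3 mutant (log2 fold change 0.92 ± 0.22, SE; edgeR, adjusted p = 0.129). The one listed as plcb1 was at 5.39 ± 1.06 CPM in WT and 5.35 ± 2.28 CPM in the exon 3 mutant (-0.01 ± 0.31; edgeR, adjusted p = 0.989). Its relative plcb3 was at 62.7 to 97.4 CPM in the WT cultures and at 106.5, 290.9 and 129.4 CPM in exon 3 cultures 1, 3 and 4 (1.14 ± 0.33; edgeR, adjusted p = 0.198). In these values LOC107376107 and plcb3 lay above WT in the exon 3 mutant, opposite to adra1b, and neither passed the edgeR test.

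Of 34 tested genes of diacylglycerol, protein kinase C and protein kinase D signalling, 0 were called by edgeR in either mutant, with medians of 0.06 in the exon 3 mutant and -0.05 in the exon 1 mutant. An unadjusted p under 0.05 was found for 6 genes in each, and DESeq2 called 1 in the exon 1 and 3 in the exon 3 mutant. The diacylglycerol kinase gene dgkk was at 12.3 ± 3.52 CPM (SD, n = 4) in WT and 33.8 ± 7.86 CPM in the exon 3 mutant (n = 3; log2 fold change 1.46 ± 0.27, SE; edgeR, adjusted p = 0.0673). The protein kinase C gene prkcaa was at 32.0 ± 5.74 and 18.8 ± 1.54 CPM (-0.76 ± 0.19; edgeR, adjusted p = 0.151). The exon 1 mutant had the same direction in both genes. There dgkk was at 20.3 ± 6.43 CPM (0.72 ± 0.27; edgeR, adjusted p = 0.484). Prkcaa was at 21.6 ± 6.08 CPM there (-0.56 ± 0.19; edgeR, adjusted p = 0.435).

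Of 53 tested genes of AMP and purine nucleotide metabolism, 0 were called by edgeR in either mutant, with medians of -0.0041 in the exon 3 mutant and -0.01 in the exon 1 mutant. For 6 genes in the exon 1 and 5 in the exon 3 mutant the unadjusted p was under 0.05, and DESeq2 called 2 and 3. The purine nucleoside phosphorylase gene pnp4a, known in zebrafish as a marker of iridophores, was at 3.47 ± 1.44 CPM (SD, n = 4) in WT and 0.476 ± 0.24 CPM in the exon 3 mutant (n = 3; log2 fold change -2.87 ± 0.53, SE; edgeR, adjusted p = 0.0673).

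Likeness between genes was measured over the 10 cultures, as Pearson's r of log2 CPM against 11201 named genes with a mean of 1 CPM or more. Because cultures of the same genotype share their genotype, and exon 3 culture 3 stands apart, these values describe the pattern and carry no p. Cadm4 and hs6st3 were each other's nearest gene (r = 0.964), and lrrc4.2, which encodes a leucine-rich repeat protein, was among the nearest 3 for both (0.947 and 0.950). It was at 2.29 CPM on average in WT, 0.376 with the exon 1 and 0.0151 with the exon 3 mutation. The remaining ones were prss12, a serine protease gene, for cadm4 (0.949) and cox10, which serves heme A synthesis, for hs6st3 (0.961).

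For ampd3b the nearest gene was vgll3 itself (r = 0.953), followed by folh1b (0.945) and the glutamine synthetase gene glula (0.932). For adra1b these were ptp4a3a, a phosphatase gene (0.930), mob3a (0.929) and the endothelin gene edn2 (0.928). Edn2 was at 72.7 CPM on average in WT, 34.0 with the exon 1 and 8.04 with the exon 3 mutation. For prkd2 they were usp8, a deubiquitinase gene (0.958), the adducin gene add1 (0.947) and dcaf8 (0.932). Among the selected genes, ampd3b correlated at 0.920 with cadm4, 0.894 with hs6st3 and 0.879 with adra1b. Adra1b was less like cadm4 (0.767) and hs6st3 (0.723). Prkd2 ran opposite to all of these genes, at -0.855 to -0.651. Selection for a gap between WT and the exon 3 mutant makes correlations of these signs likely.

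The selected genes that could be placed lay on different chromosomes, none of them on that of vgll3. By RefSeq names of assembly NfurGRZ-RIMD1, cadm4 is on chromosome 5, ampd3b on 4, prkd2 on 13 and vgll3 on 14, while hs6st3 and adra1b did not match by symbol. Of the nearest tested genes on each side of the 3 placed genes, 18 in all, 0 were called by edgeR in either mutant, with an unadjusted p under 0.05 for 1 in the exon 1 and 6 in the exon 3 mutant, and DESeq2 called 0 and 2. Over all genes the shares were 8.48% and 12.3% at an unadjusted p under 0.05, and 1.55% and 3.10% in DESeq2. In the exon 3 mutant their log2 fold changes had a median of -0.14. Around cadm4 they ran from -0.51 to -0.08, around ampd3b from -1.21 (admb) to -0.12 (rnf141) and around prkd2 from -0.07 (fkrp) to 1.26 (gpr184). The genes before ampd3b, admb, swap70b (-1.04) and wee1 (-0.83), were all lower in these values than those after it, but none passed the test.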

How the data were processed

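RNA was measured in 18 libraries of polyadenylated RNA. The authors deposited a table of read counts, not normalised, for 25099 genes. STAR 2.7.6a, edgeR 3.32.1, cutadapt 3.4, FastQC 0.11.8 and Trim Galore 0.6.4 are named in the submitters' processing notes, without roles. Genome build, strand use and the treatment of multiply matching reads were not given in the sources used here, so counts of paralogs and overlapping genes are uncertain, and no coordinates are given. Partner libraries were added up to cultures, and F1 and F9 were kept as separate cultures, which the labels leave unclear. Genes passing filterByExpr (16354) were scaled by TMM and all 10 cultures were fitted together in edgeR 4.0.16 (limma 3.58.1, R 4.3.3), with the robust quasi-likelihood F test, Benjamini-Hochberg adjustment over all genes, a threshold of 0.05 and a prior count of 0.125. The SE was taken as |log2 fold change| over the square root of the F statistic. The code was run on counts simulated from the dispersions fitted here, which does not test the model on unlike libraries or cultures. DESeq2 1.42.0 and 21 other settings served as alternatives. The common biological coefficient of variation was 0.248. Counting error limits low genes.

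The members, gene lists and tests were chosen with earlier results of these data known. Genes named besides the selected 5 are, by rule, those of their families, list genes past the test in a mutant (otherwise those with the smallest p in the exon 3 mutant), the 3 genes most alike in level, the nearest 3 tested genes on each side, the genes at the edge of the selection, and vgll3. Names for LOC numbers come from RefSeq, where 17480 of all 25099 identifiers matched. Of 14280 LOC identifiers, 5241 were given a name. Those without a name could not enter the families, lists, likeness or edge of the selection, so relatives may be missing. A planned search of promoters for motifs was not run here.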

Additional observations from a re-analysis of the deposited data

How the results depend on the processing

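Of 22 other settings, 1 was added after seeing the data, the use of library 3B alone for exon 1 culture 3. The regrouping of the WT libraries was planned, but it too follows likenesses seen in these data. The setting with 18 libraries as separate samples treats technical replicates as independent, so its p-values can be too small and its calls too many. The number of genes called in the exon 1 mutant against WT, 26, was 253 by DESeq2, 342 with 18 libraries as separate samples, 6 with the replicate block, 14 with WT represented by F1 and F9 alone, 6 with the WT libraries regrouped and 5 to 56 with a culture left out. In the exon 3 mutant against WT, 39 became 507 by DESeq2, 567 with 18 libraries, 25 with a filter of 1 CPM in 3 cultures, 17 with only those genotypes, 5 with the block, 12 with F1 and F9 summed, 15 with them alone, 6 regrouped and 7 to 38 with a culture left out. Between the mutants, 2 became 174 by DESeq2, 278 with 18 libraries, 1 with only those genotypes, the block or regrouping, 6 with 3B alone and 1 to 8 with a culture left out.

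Of the selected genes, 0 past the test in the exon 1 mutant became 1 by DESeq2 and with 18 libraries, in both cases prkd2 (0.61 and 0.62). The 5 past the test in the exon 3 mutant became 3 with the stricter filter, 2 with the block, 2 with F1 and F9 summed, 0 with them alone and 1 regrouped. Leaving out a culture gave 0 to 4, with 0 without exon 3 culture 1 or WT FM, 1 without WT F1, 2 without exon 3 culture 4 or WT F4, and 3 without exon 1 culture 4 or exon 3 culture 3. Between the mutants 0 became 4 by DESeq2 and with 18 libraries, and 0 to 1 with a culture left out. Size changed for cadm4 in the exon 1 mutant (-1.73 with the block, -1.61 to -0.39 with a culture left out), for hs6st3 in the exon 3 mutant with the block (-2.31), for cadm4 between the mutants with a culture left out (-2.65 to -1.44) and for prkd2 between the mutants with 3B alone (0.46). The log2 fold changes of all 5 in the exon 3 mutant against WT kept their sign in all 22 settings. Their selection for large differences in this comparison makes that likely.

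Calls were gained in edgeR for pnp4a in the exon 3 mutant with no filter on low counts (adjusted p = 0.0495), without exon 1 culture 6 (0.0491) and with 18 libraries (0.00176), for dgkk (0.00895) and plcb3 (0.0413) there with 18 libraries, and for prkcaa in the exon 1 mutant with 3B alone (0.0447). Signs turned for small values. For the exon 1 mutant, adra1b was at 0.00138 with the block, 0.14 with F1 and F9 alone, 0.0774 with 3B alone and -0.18 to 0.0852 with a culture left out. Cadm1a was at -0.49 with the block and -0.25 to 0.82 with a culture left out, and cadm3 at 0.13 with F1 and F9 alone and -0.47 to 0.0334 with a culture left out. Hs6st2 was at 0.0401 with the block, 0.00769 with 3B alone and -0.28 to 0.0402 with a culture left out, and plcb1 (LOC107376107) at 0.0742 with the block, 0.39 with F1 and F9 alone and -0.13 to 0.13. With a culture left out, adra1aa ran from -0.34 to 0.18 and prkd3 from -0.0657 to 0.27. For the exon 3 mutant, cadm1a was at -0.0310 and cadm3 at -0.55 with the block, cadm3 ran from -0.17 to 0.55 and prkd1 from -0.13 to 0.43 with a culture left out, and hs6st2 was at -0.0572 with F1 and F9 alone and -0.0721 to 0.15 with a culture left out. The cause was not tested. The block used the numbers 3 and 4 that both mutants carry. Deviations from the genotype mean correlated across genes at 0.253 for the cultures numbered 3 and -0.164 for those numbered 4. Pairs with unlike numbers ran from -0.251 to 0.222. With 3 cultures per mutant, these values cannot show whether same-numbered cultures share more than a number. Depth limits cadm1a, cadm3, hs3st1l2 and the receptor genes with few counts.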
